A study of Homo sapiens and Mus musculus with 15 samples.

Results

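The contractile actin and SRF target genes are 10 genes taken by symbol: ACTA2, TAGLN, CNN1, MYL9, TPM1, TPM2, SRF, VCL, FLNA and ACTN1. All 10 were found among the 61071 gene rows of the ARPE-19 table, and their mouse counterparts were found among the 56832 rows of the mouse table and the 32285 genes of the single-cell matrices. Most of them were lower in cells on a soft gel than on plastic. On the gel, 6 were lower in cells that overexpressed YAP than in controls, and CNN1 was higher. Of the 6, 4 (TAGLN, MYL9, TPM1 and SRF) had also been lower on gel than on plastic. In the mouse eye the levels of the 10 genes were higher in gated vessel wall (mural) cells than in gated retinal pigment epithelium (RPE). The mural gate selects on Myh11, itself listed as an SRF target, so that difference is a description.

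Non-muscle cells contract with the same filaments that smooth muscle uses. Actin filaments are wound by tropomyosins, pulled by myosin II, cross-linked by filamins and alpha-actinins and anchored to the matrix at focal adhesions. Serum response factor (SRF) transcribes many of these genes together with the MRTF coactivators, which monomeric actin holds in the cytoplasm, so that filament assembly releases them. SRF also works with ternary complex factors (TCFs) at immediate early genes. YAP, the coactivator that the LATS kinases of the Hippo pathway restrain, also responds to stiffness and adhesion, acts through TEAD factors and shares some targets with MRTF and SRF. In the eye, smooth muscle actin is best known from arterial smooth muscle and pericytes, and from RPE cells that lose their epithelial form.

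ARPE-19 is an established human RPE line. Its 9 libraries comprised 3 of cells with control vectors on plastic, 3 of such cells on a gel of 1.5 kPa and 3 of cells that overexpressed YAP-HA, also on gel at 1.5 kPa. Mouse tissue was eye cups of old C57BL/6J mice without their retina, with 2 control libraries and 2 treated with TRULI, a LATS inhibitor, whose dose is not given in the labels. The single-cell data were 1 library of RPE cell preparations from C57BL/6J mice at 3 months and 1 at 24 months. No label says whether libraries of a group came from separate cultures, so p-values measure only the spread between these libraries. YAP1, the overexpressed gene, read 55.9 to 77.3 TPM (transcript shares of a library, scaled by length) in the gel libraries and 2209 to 2469 TPM in the YAP-HA libraries. RPE65 and TTR, which define mature RPE, were listed at 0 in all 9 ARPE-19 libraries, while Rpe65 lay between 1798 and 2521 TPM in the mouse eye cups. TPM keeps no depth, so the depth of these libraries is unknown.

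Promoter windows from RefSeq, 250 bases before to 50 bases after a transcript start on GRCh38.p14, were listed for 8 of the 10 genes, as 14 windows. They are shown because SRF binds the CArG box, a 10-base site of paired C, 6 A or T bases and paired G that reads alike on both strands. An intact CArG box stood in 3 of the 14 windows (21.4%), against 1.29% of all 35116 windows, 18.8% of those of other MRTF-SRF cytoskeletal targets and 2.38% of those of SRF and actin regulators. SRF itself had 2, which began 30 and 10 bases before the start. FLNA had 1 at 94 bases before its start, and ACTN1 had 1 at 171 bases before the third of its listed starts. The window of ACTA2 at its downstream start held 2 sites with 1 base off, beginning 121 and 71 bases before the start, and such sites stood in 17.9% of all windows. The TEAD motif CATTCC, read on both strands, stood in 3 of the 14 windows (of ACTA2, VCL and ACTN1) and in 14% of all windows. The 4 windows with CArG or near-CArG sites that are described below with their transcripts follow, with those sites in capitals, each in the direction of the gene:
SRF (chr6:43171019-43171318, plus strand): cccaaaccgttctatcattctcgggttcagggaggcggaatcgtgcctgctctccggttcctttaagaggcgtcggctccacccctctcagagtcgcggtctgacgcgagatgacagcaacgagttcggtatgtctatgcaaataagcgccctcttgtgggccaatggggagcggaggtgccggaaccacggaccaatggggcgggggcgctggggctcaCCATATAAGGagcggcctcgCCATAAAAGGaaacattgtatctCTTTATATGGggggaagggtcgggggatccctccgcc
FLNA (chrX:154374585-154374884, minus strand): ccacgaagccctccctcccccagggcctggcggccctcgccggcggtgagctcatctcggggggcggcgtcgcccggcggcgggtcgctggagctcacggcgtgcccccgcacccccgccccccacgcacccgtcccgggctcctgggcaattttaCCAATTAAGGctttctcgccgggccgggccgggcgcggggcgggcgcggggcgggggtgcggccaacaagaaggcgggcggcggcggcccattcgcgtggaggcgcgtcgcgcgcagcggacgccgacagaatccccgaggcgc
ACTN1 (chr14:68977517-68977816, minus strand): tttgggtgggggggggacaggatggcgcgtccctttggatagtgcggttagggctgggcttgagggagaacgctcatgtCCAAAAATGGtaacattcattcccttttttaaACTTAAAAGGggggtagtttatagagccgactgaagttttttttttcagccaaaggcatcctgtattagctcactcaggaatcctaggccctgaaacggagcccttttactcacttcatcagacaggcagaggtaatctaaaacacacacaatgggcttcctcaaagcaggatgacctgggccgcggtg
ACTA2 (chr10:88952724-88953023, minus strand): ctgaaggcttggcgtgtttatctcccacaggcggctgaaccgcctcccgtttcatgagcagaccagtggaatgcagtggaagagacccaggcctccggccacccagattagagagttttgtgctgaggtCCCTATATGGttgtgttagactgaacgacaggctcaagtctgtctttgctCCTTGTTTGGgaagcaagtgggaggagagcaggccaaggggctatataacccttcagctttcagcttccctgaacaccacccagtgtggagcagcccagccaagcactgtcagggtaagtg
A match is a string of letters and not a measured binding site.

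On the soft gel, 8 of the 10 genes were lower than on plastic, TPM2 was slightly higher and FLNA was not called. The largest differences were in the thin filament proteins TAGLN and CNN1 and in the myosin light chain MYL9. In limma's test with Benjamini-Hochberg adjustment, 9 of 10 passed an adjusted p of 0.05, in a comparison in which 50.5% of the 14606 genes tested passed. The 8 lower genes stand against 27.9% of all genes called lower and TPM2 against 22.6% called higher. The 10 genes and the lists below were chosen with earlier results of these data known, so these and later contrasts are descriptions. With library medians centred, the share of all calls that were higher went from 44.8% to 58.1%, and the 8 genes stayed lower and called. CNN1 was under 1 TPM in every gel library and passed the filter on low values through the other libraries. Without it, 8 of 9 genes passed, 7 of them lower, and their median log2 difference was -0.66, against -0.04 for all genes tested.

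TAGLN, the actin-binding protein transgelin of smooth muscle, read 1249, 1241 and 1277 TPM on plastic and 390.4, 394 and 381 TPM on the gel. Its groups did not overlap, as was so in the lower direction for 31.2% of all genes, and the mean on the gel was 3.23-fold lower (log2 difference -1.69 on the scale of TPM + 1, SE 0.06, adjusted p = 1.98e-07 in limma). Of all genes tested, 0.965% had a log2 difference at least as large in either direction. CNN1, calponin, which binds actin and damps myosin, read 3.87, 3.12 and 3.66 TPM on plastic and 0.92, 0.52 and 0.90 TPM on the gel. All gel values were below 1 TPM, where the added 1 shrinks a log2 difference, here -1.36 (SE 0.15, adjusted p = 8.07e-05 in limma). MYL9, the regulatory light chain of smooth muscle and non-muscle myosin II, read 249.01, 208.1 and 220.2 TPM on plastic and 108, 114 and 108.5 TPM on the gel. Its mean was 2.05-fold lower on the gel without overlap (log2 difference -1.03, SE 0.08, adjusted p = 1.43e-05 in limma).

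ACTA2, smooth muscle actin, had 68.9, 61.5 and 66.1 TPM on plastic and 42.5, 40.6 and 39.9 TPM on the gel. The fall was smaller than for TAGLN, at a log2 difference of -0.66 (SE 0.07, adjusted p = 6.45e-05 in limma), from a level far below TAGLN per transcript length. ACTA2 shares coding sequence with other actin genes, so the split of reads among them is an estimate. The tropomyosins, which wind along actin and gate myosin, parted. TPM1 read 1343, 1446 and 1373 TPM on plastic and 1065, 1013 and 1043 TPM on the gel, a log2 difference of -0.41 (adjusted p = 0.000142 in limma). TPM2 read 646, 611 and 641 TPM on plastic and 658, 772 and 722 TPM on the gel, a log2 difference of 0.18 (adjusted p = 0.0351 in limma). The TPM2 groups lay close, and the call was lost in 10 of 14 alternatives, among them each fit without gel replicate 2 or 3 or any plastic library (adjusted p 0.0523 to 0.131).

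Of the anchoring and cross-linking genes, VCL and ACTN1 were lower on the gel and FLNA was not. VCL, vinculin, which ties actin to focal adhesions, read 231, 252 and 247 TPM on plastic and 184, 128 and 139 TPM on the gel (log2 difference -0.71, adjusted p = 0.000789 in limma). ACTN1, alpha-actinin of bundles and adhesions, read 605, 520.0 and 627 TPM on plastic and 354.9, 249.4 and 274.4 TPM on the gel (log2 difference -1.004, adjusted p = 0.000128 in limma). Gel replicate 1 was the highest gel library for both genes. FLNA, filamin A, which cross-links actin into networks, read 879, 813 and 902 TPM on plastic and 850.2, 896 and 842 TPM on the gel. Its groups overlapped, and the 95% interval of its log2 difference ran from -0.14 to 0.13. Quantile normalization gave FLNA a call, at -0.23 (adjusted p = 0.00909 in limma), and centring the library medians gave 0.11 without a call. SRF, whose own promoter window held CArG letters, read 23.1, 21.4 and 24.7 TPM on plastic and 19.1, 17.8 and 16.9 TPM on the gel (log2 difference -0.35, adjusted p = 0.00577 in limma). Its groups did not overlap.

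**Figure D1:**
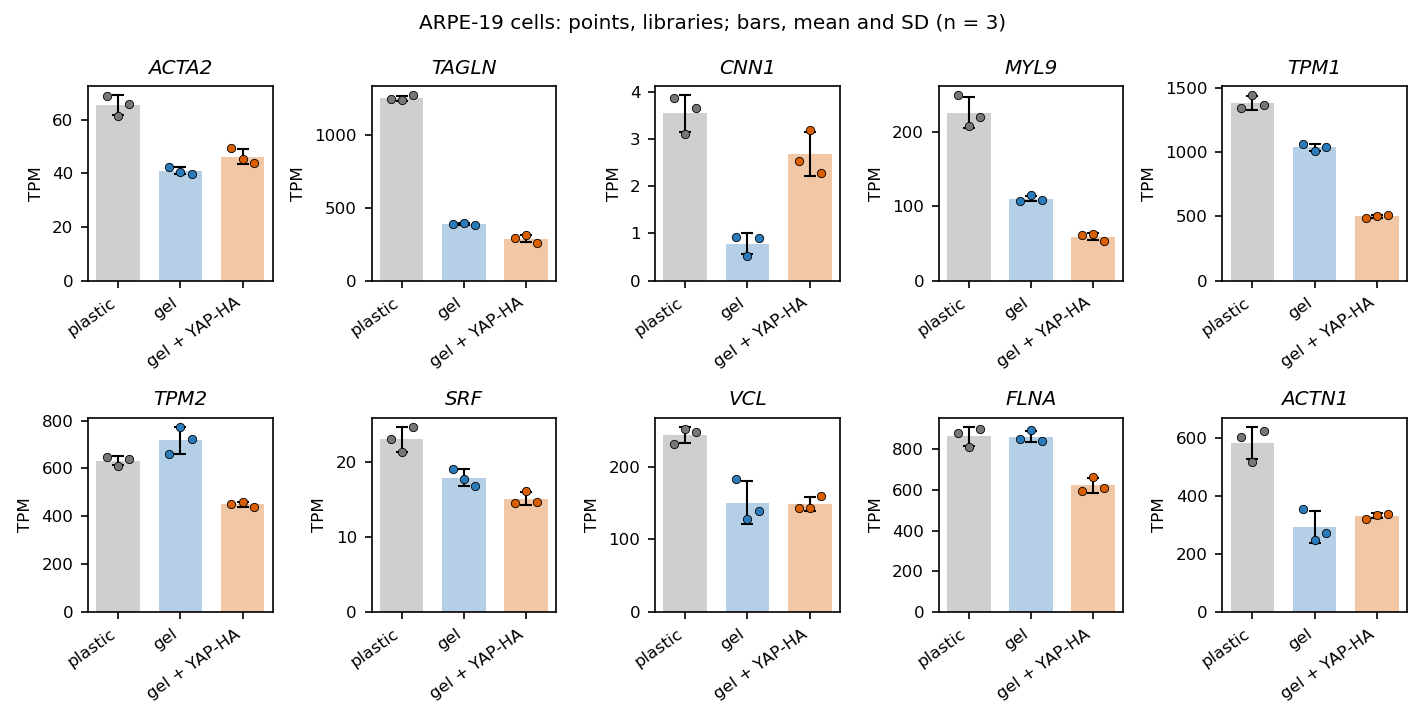
TPM (y axis, linear, from 0) of the 10 genes in ARPE-19 cells on plastic, on the gel and on the gel with YAP-HA, with points for libraries, bars for means and whiskers for the SD (n = 3). TAGLN steps down from 1241 to 1277 TPM on plastic to 260.5 to 310.2 TPM with YAP-HA, and FLNA is level between plastic and gel. CNN1 lies below 1 TPM on the gel and at 2.29 to 3.20 TPM with YAP-HA.

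Further genes of the pathway were counted from lists. Of 40 other MRTF-SRF cytoskeletal targets, 35 were tested, 24 were lower and 5 higher on the gel. Beside these and the counts below, 27.9% of all genes tested were called lower and 22.6% higher. The largest falls were in CCN2, the connective tissue growth factor that YAP also drives (log2 difference -1.62), LMOD1, the filament nucleator leiomodin (-1.33), CALD1, caldesmon (-1.21), and MICAL2, an actin oxidase (-1.15). The 4 largest rises were in SMTN, smoothelin (0.34), ITGA5, a fibronectin receptor chain (0.32), DSTN, the depolymerizing factor destrin (0.27), and MYL6, a myosin light chain (0.22). Among 21 regulators tested, 13 were lower, led by the myosin phosphatase subunit PPP1R12B (-1.94), the SRF coactivator MRTFB (-1.32), the phosphatase subunit PPP1R12A (-1.10) and the SRF coactivator MYOCD (-0.89), and RHOB (0.44), MYL12A (0.21) and MYL12B (0.19) were higher. The TCF-SRF immediate early genes did not share that direction, with FOS (0.48), IER2 (0.79) and JUNB (0.53) higher, NR4A1 lower (-0.43) and 3 of 7 not called.

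With YAP-HA, compared with control cells on the same gel, 6 of the genes were lower, with TPM1 and MYL9 in the lead, and CNN1 alone was higher among those called. ACTA2, VCL and ACTN1 were not called. The gel libraries also served the comparison with plastic, so a low gel reading alone gives a fall there and a rise here. In limma, 7 of 10 passed an adjusted p of 0.05, against 48.4% of all genes tested (23.9% lower and 24.5% higher). Without CNN1, 6 of 9 passed, all lower, and the median log2 difference was -0.44 against 0.01 for all genes.

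TPM1 read 487, 501 and 513 TPM in the YAP-HA libraries against 1013 to 1065 TPM in the gel controls. This 2.08-fold lower mean (log2 difference -1.06, SE 0.05, adjusted p = 1.20e-07 in limma) stands beside -0.41 for gel against plastic, and the difference between those steps was not tested. MYL9 read 61.6, 62.3 and 53.2 TPM, or 1.87-fold lower than on the gel alone (log2 difference -0.89, adjusted p = 1.64e-05 in limma). TPM2, at 452, 461 and 438 TPM, lay below every gel and every plastic library, where 28.5% of all genes were apart from the gel controls and lower (log2 difference to gel controls -0.67, adjusted p = 1.78e-05 in limma). FLNA, at 593, 666 and 612 TPM, did so as well (log2 difference -0.47, adjusted p = 0.000171 in limma). TAGLN read 290.3, 310.2 and 260.5 TPM (log2 difference -0.44, adjusted p = 0.000305 in limma). SRF read 14.6, 16.1 and 14.6 TPM, all below the lowest gel library at 16.9 TPM (log2 difference -0.23, adjusted p = 0.0385 in limma). The SRF call was lost in 8 of 14 alternatives, with adjusted p up to 0.113 in the fits that leave out YAP-HA replicate 1 or 3 or gel replicate 1 or 2.

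CNN1 went the other way, with 2.55, 3.20 and 2.29 TPM against 0.52 to 0.92 TPM on the gel. Its mean was 3.44-fold higher (log2 difference 1.05, SE 0.15, adjusted p = 0.000246 in limma), and its values overlapped those on plastic. ACTA2 read 49.3, 45.4 and 44.0 TPM, above all 3 gel controls, as 28.3% of all genes were, with a log2 difference of 0.17 (95% interval 0.02 to 0.32, adjusted p = 0.0628 in limma). VCL, with 143, 143 and 160.1 TPM, lay within the gel range (log2 difference 0.00, 95% interval -0.25 to 0.26). ACTN1, with 323, 335 and 340.4 TPM, also lay within it (log2 difference 0.20, 95% interval -0.06 to 0.46). Without gel replicate 1, ACTN1 was called higher (0.35, adjusted p = 0.0061 in limma), and so was ACTA2 (0.19, adjusted p = 0.0467 in limma).

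The other lists were split under YAP-HA. Among MRTF-SRF cytoskeletal targets 10 of 35 were higher and 14 lower. Of all genes tested, 24.5% were called higher and 23.9% lower, the shares to set beside each list. MYH10, a non-muscle myosin heavy chain (1.26), FLNC, filamin C (1.04), FHL1 (0.90) and NEXN, nexilin (0.62), rose most, and ITGA5 (-2.06), the LIM protein PDLIM7 (-1.42), TAGLN2, the transgelin of non-muscle cells (-0.77), and MYL6 (-0.63) fell most. The filamins thus moved apart, FLNC up and FLNA down. Of 21 regulators, 10 were higher, among them PPP1R12B (1.12), MRTFB (1.05), the formin DIAPH3 (0.95) and SCAI, a repressor of MRTF (0.83), and 6 were lower, among them RHOC (-0.63), MYL12A (-0.54), MYOCD (-0.54) and RHOB (-0.50). The immediate early genes JUNB (-2.84), IER2 (-1.12) and MCL1 (-0.28) fell, and NR4A1 rose (0.61), of 7 tested.

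Set against control cells on plastic, a comparison that shares its libraries with both comparisons above, the YAP-HA cells on gel had 9 of 10 genes lower and none higher, in a fit that called 34.4% of all genes (20.2% lower and 14.2% higher). TAGLN was lowest at a log2 difference of -2.13 (adjusted p = 1.29e-08 in limma), a 4.38-fold lower mean. MYL9 followed at -1.92 and TPM1 at -1.47, and the other falls ran from -0.80 for ACTN1 to -0.47 for FLNA. CNN1 was not called (-0.31, 95% interval -0.63 to 0.01, adjusted p = 0.126 in limma). Of the MRTF-SRF targets 25 were lower, led by ITGA5 (-1.74), PDLIM7 (-1.67), CCN2 (-1.37) and LMOD1 (-1.31), and the 3 that were higher were FLNC (0.96), SMTN (0.48) and SYNM (0.38). Regulators were lower in 8 cases of 21 and higher in 3 (SCAI, DIAPH3 and DIAPH1), and of the immediate early genes JUNB (-2.30) and IER2 (-0.33) were lower. Sums of marker lists moved with the groups as well. The 8 mural genes PDGFRB, CSPG4, NOTCH3, KCNJ8, ABCC9, HIGD1B, DES and MCAM summed to 73.4 to 79.5 TPM on plastic, 32.8 to 39.8 TPM on gel and 45.0 to 48.1 TPM with YAP-HA, and 5 fibroblast markers to 58.0 to 67.5, 19.7 to 29.1 and 2.26 to 4.23 TPM. MYH11 and RGS5 summed to 1.44 to 5.10 TPM over all 9 libraries. Among these 8, 5 and 2 genes none was at 0 throughout, but only 4, 1 and 1 passed the filter on low values. For gel against plastic, 1 of the 4 mural genes tested was called higher and 2 lower. The RPE genes MITF, RLBP1, RPE65, TRPM3, TTR and TYR summed to 17.3 to 18.7 TPM on plastic. Their sums were 6.80 to 7.61 TPM on gel and 11.3 to 13.6 TPM with YAP-HA, with RPE65 and TTR at 0. RDH5, BEST1, RGR and LRAT summed to 23.9 to 26.1, 17.4 to 20.1 and 21.6 to 28.8 TPM in that order. Of these 6 and 4 RPE genes, 2 and 3 passed the filter on low values. The part of these markers in the differences was not tested.

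**Figure D2:**
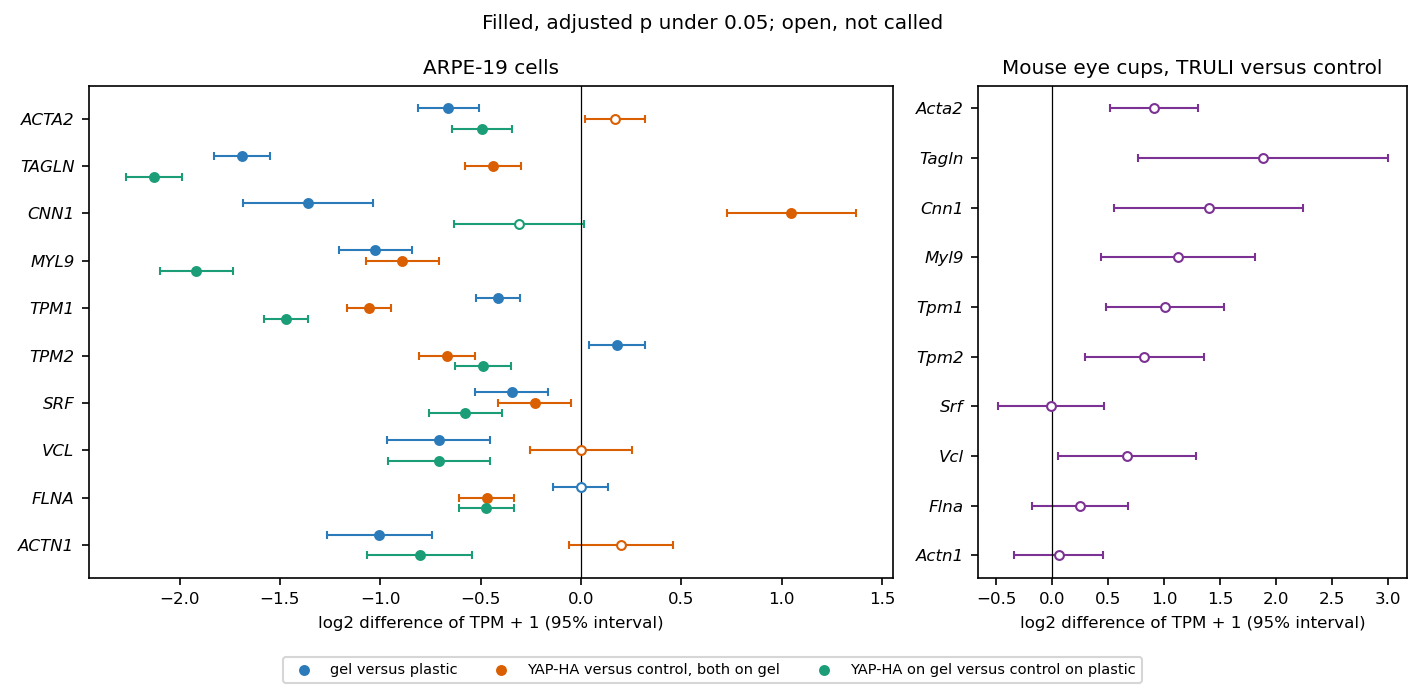
Log2 differences of TPM + 1 (x axis) with 95% intervals for each gene (y axis) in the 3 ARPE-19 comparisons and in mouse eye cups, with filled points where the adjusted p is under 0.05. TAGLN, MYL9 and TPM1 lie below 0 in every ARPE-19 comparison, CNN1 lies at -1.36 and 1.05 in the first and the second, and all mouse points are open.

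In the single-cell libraries the 10 genes were read in classes of cells gated by marker UMIs (unique molecular identifiers, which count captured transcripts). Of 30865 cells kept, 15667 were from 3 months and 15198 from 24 months. The full libraries shared 381 barcodes, and the kept cells 300. The condition label of the library at 3 months reads as old, while its title and age label give 3 months, which were followed. The RPE gate, 4% of UMIs from Mitf, Rlbp1, Rpe65, Trpm3, Ttr and Tyr, held 1854 and 5280 cells with a median of 10927 and 3861 UMIs. The mural gate, for pericytes and smooth muscle, required 3 UMIs and 0.1% of UMIs from Myh11 and Rgs5 and held 601 and 489 cells with a median of 5333 and 3892 UMIs. Mural genes outside the gate (Pdgfrb, Cspg4, Notch3, Kcnj8, Abcc9, Higd1b, Des and Mcam) summed to 1965 and 1656 CPM there (UMIs scaled by all UMIs of the class, with no length scaling), against 66.7 and 63.0 CPM in the RPE gate, with none of the 8 at 0. With 1 library per age there is no test, and intervals are exact 95% intervals that cover counting error only.

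Mural cells had the highest level of each of the 10 genes among the gated classes, for Srf within the counting error of endothelial cells. They supplied most of the UMIs of Acta2, Tagln and Cnn1 at both ages. The gate selects on Myh11, a gene of the MRTF-SRF list, so these levels are not independent of it. Acta2 had 12857 CPM (12734 to 12981) at 3 months and 14789 CPM (14617 to 14962) at 24 months in the mural gate, against 150.1 and 153 CPM in the RPE gate. Mural cells were 3.84% and 3.22% of cells and supplied 76.3% and 68.1% of all Acta2 UMIs, 77.1% and 71.9% of Tagln UMIs and 87.0% and 83.6% of Cnn1 UMIs. The shares were lower for Myl9 (48.9% and 59.2%), Tpm2 (40.7% and 51.4%), Tpm1 (35.3% and 38.9%) and Flna (25.5% and 24.9%). They were lowest for Actn1 (13.8% and 15.03%), Srf (11.9% and 7.12%) and Vcl (10.6% and 9.87%). Cells that passed no gate, 45.6% and 35.8% of those kept at 3 and 24 months, are not in the ranking of classes.

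Tagln, at 5757 and 9050 CPM in the mural gate, had 76.2 and 125 CPM in gated fibroblasts and 13.6 and 28.7 CPM in the RPE gate. Cnn1, at 202 and 392 CPM in mural cells, had 0.35 and 0.88 CPM in the RPE gate and 0 UMIs in gated macrophages at both ages. Myl9 (5448 and 5724 CPM), Tpm1 (3285 and 3477 CPM) and Tpm2 (2250.2 and 2784 CPM) were also highest in mural cells, with fibroblasts next. Flna had 1241 and 1467 CPM in mural cells, 171 and 155 CPM in fibroblasts and 135 and 158 CPM in macrophages, and the intervals of fibroblasts and macrophages overlapped at 24 months. Actn1 (473 and 744 CPM) and Vcl (248 and 222 CPM) kept the same leader. Srf read 50.7 and 39.1 CPM in mural cells and 43.7 and 31.4 CPM in endothelial cells, intervals that overlapped, and 6.31 and 5.93 CPM in the RPE gate.

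Within the mural gate, cells with more Myh11 than Rgs5 UMIs, as in smooth muscle, had more Acta2 and Tagln than those led by Rgs5, a pericyte gene. Myh11 is itself on the list of MRTF-SRF cytoskeletal targets. The levels compared are therefore not independent of the split, and the difference is a description only. At 3 months Acta2 was 1.90-fold and Tagln 3.13-fold higher in the 137 Myh11-led than in the 457 Rgs5-led cells, and at 24 months 2.43-fold and 3.53-fold higher in 209 than in 274 cells. Srf did not differ between them beyond counting error at either age (log2 ratios 0.49, -0.01 to 0.98, and 0.07, -0.63 to 0.76). The genes outside the list whose levels over the 12 combinations of class and library were most like Acta2 were Cacna1h, Tspyl5, Kcnab1, Cend1 and Slc2a4, with Pearson r from 0.987 to 0.989 on log2(CPM + 10). Among the 10, r with Acta2 ran from 0.96 for Tagln and Cnn1 to 0.60 for Vcl and 0.52 for Srf. These points share 2 libraries and differ widely in depth, so r is a description.

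**Figure D3:**
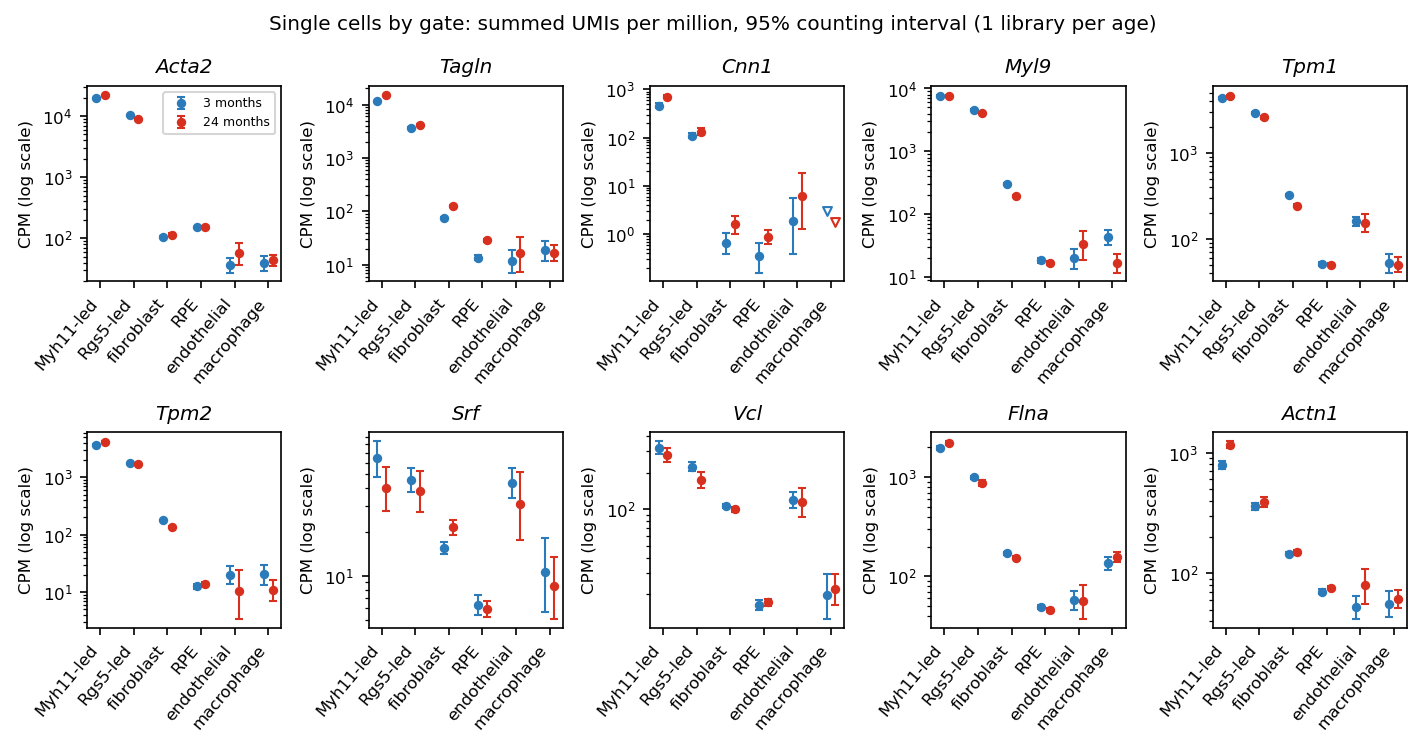
CPM (y axis, log scale) of the 10 genes by gated class (x axis) at 3 months (blue) and 24 months (red), with exact 95% counting intervals and open triangles at the upper limit where no UMI was counted (macrophage Cnn1). Myh11-led cells have the highest level of each gene, with 19713 and 21871 CPM for Acta2, while Srf is close between mural and endothelial cells.

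Between the ages, no gene of the 10 passed a log2 ratio of 1 in the mural gate, where 6.66% of 11184 genes with at least 20 UMIs did. The ratios at 24 against 3 months were 0.96 (0.80 to 1.11) for Cnn1, 0.65 for Tagln and 0.65 for Actn1, and ran from 0.31 for Tpm2 through 0.20 for Acta2 to -0.38 (-0.79 to 0.03) for Srf. The mix of the gate differed too, since Myh11-led cells went from 137 of 601 to 209 of 489. Within Myh11-led cells the ratios were 0.62 for Cnn1, 0.37 for Tagln, 0.55 for Actn1 and 0.15 (0.12 to 0.18) for Acta2, each below that of the whole gate, while Srf lay at -0.67 (-1.33 to -0.03) and Vcl at -0.20 (-0.46 to 0.06). Within Rgs5-led cells Acta2 lay at -0.21 (-0.24 to -0.17), Myl9 at -0.18, Flna at -0.19, Tpm1 at -0.16 and Vcl at -0.36, while Tagln lay at 0.19 (0.14 to 0.25). Acta2, Myl9, Tpm1 and Flna had positive ratios over the whole gate and negative ones in the Rgs5-led cells, with intervals that left out 0, and the interval of Tpm2 in the Rgs5-led cells ran from -0.12 to 0.04. Beside these ratios, the 6 RPE gate markers in the mural gate went from 4536 to 9141 CPM, 6 endothelial markers from 311 to 141 CPM, 5 T cell markers from 17.0 to 81.3 CPM and Myh11 with Rgs5 from 12649 to 8720 CPM, and their part in the ratios was not tested.

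In the RPE gate 8 of the 10 genes had log2 ratios from -0.16 to 0.14 and 2 passed 1, both upward, against 6.42% of 14667 genes either way and 4.51% upward. Acta2, with 3877 UMIs at 3 months and 6572 at 24 months, stood at 150.1 CPM (145 to 155) and then 153 CPM (149 to 157), a ratio of 0.03 (-0.03 to 0.08). Tagln went from 13.6 (12.2 to 15.1) to 28.7 (27.2 to 30.4) CPM, a ratio of 1.08 (0.91 to 1.26), and Cnn1 from 9 to 38 UMIs, a ratio of 1.34 (0.27 to 2.58). Cnn1 reached the minimum of 20 UMIs only through its UMIs at 24 months, where it was higher. Without Cnn1, Tagln was the only gene of the list past 1. In cells thinned to 1000 UMIs the ratio of Tagln was 0.66, and with the gate at 2% it was 0.76, so that neither setting left a gene past 1. A Tagln UMI was found in 2.19% and 3.09% of thinned RPE cells, with overlapping intervals (1.50 to 3.08 and 2.57 to 3.67), and in 8.31% and 9.47% before thinning. In other classes the thinned shares were 1.56% and 0.735% (endothelial), 2.31% and 1.14% (macrophages), and 3.42% in T cells at 24 months. Each interval overlapped that of RPE cells at the same age. At these cell numbers the Tagln shares in RPE cells could not be told from those of these classes. By CPM at 3 months, the intervals of macrophages (11.9 to 28.1) and endothelial cells (7.15 to 18.5) overlapped that of RPE cells. By CPM at 24 months, RPE cells lay above macrophages (16.6, 11.5 to 23.0). The CPM intervals of endothelial cells (7.22 to 33.0) and T cells (23.2 to 65.9) at that age overlapped that of RPE cells.

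Acta2 UMIs were more frequent in thinned RPE cells than in gated endothelial cells, macrophages and fibroblasts. In thinned macrophages the shares were 6.48% (3.59 to 10.6) and 4.55% (2.62 to 7.28), and in T cells 6.16% (2.86 to 11.4) at 24 months. A UMI was found in 13.2% (11.5 to 15.1) and 14.9% (13.8 to 16.03) of RPE cells thinned to 1000 UMIs, against 4.95% (3.00 to 7.62) and 4.41% (1.64 to 9.36) of endothelial cells and 7.15% and 6.11% of fibroblasts, at unthinned medians of 3740.5 and 3131 UMIs in the endothelial cells. Before thinning the shares in RPE cells were 61.8% and 48.2%. Acta2 had 11.05 (9.90 to 12.4) UMIs for each Tagln UMI in RPE cells at 3 months and 5.32 (5.00 to 5.65) at 24 months, but 2.23 and 1.63 in mural cells and 1.38 and 0.913 in fibroblasts. The RPE ratio thus lay above that of mural cells at both ages. In endothelial cells the ratio was 3.05 (1.79 to 5.43) and 3.38 (1.49 to 8.60). Mural genes outside the gate, at 66.7 and 63.0 CPM in the RPE gate, had a log2 ratio of -0.08 (-0.17 to 0.01) between the ages, while Myh11 with Rgs5 went from 18.5 to 22.8 CPM and the 5 T cell markers from 0.852 to 19.1 CPM. Their part in the Tagln ratio was not tested.

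In eye cups of old mice, 8 of the 10 genes read higher in both TRULI libraries than in both controls, but none passed limma's test at an adjusted p of 0.05. Only 8 of 15132 genes passed it (0.0529%). Cnn1 passed the filter on low values through its treated libraries alone, and without it 7 of 9 genes read higher in both treated libraries. At an unadjusted p under 0.05 there were 6 of these 9, all higher, in a comparison in which 12% of genes lay under it (6.36% higher). Groups apart in the higher direction were found for 25.2% of all genes. The median log2 difference was 0.82 for the 9 genes and 0.04 for all genes. In a whole eye cup a change in the number of cells of a type and a change in RNA per cell cannot be told apart.

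Tagln read 8.45 and 16.7 TPM in controls and 32.4 and 67.0 TPM with TRULI (log2 difference 1.88, 95% interval 0.76 to 3.00, adjusted p = 0.261 in limma). As ratios, the replicates of each group differed about as widely as the highest control and the lowest treated library. Acta2 read 83.5 and 94.95 TPM in controls and 149.8 and 188 TPM with TRULI, a 1.89-fold higher mean (log2 difference 0.91, 95% interval 0.51 to 1.30, adjusted p = 0.194 in limma). Cnn1 read 0.66 and 0.52 TPM in controls and 2.93 and 3.45 TPM with TRULI (log2 difference 1.40, adjusted p = 0.262 in limma).

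Myl9 read 20.3 and 35.7 TPM in controls and 59.3 and 60.6 TPM with TRULI (log2 difference 1.12, 95% interval 0.43 to 1.81, and 0.73 to 1.52 when 1 library was left out). Tpm1 read 277 and 323 TPM in controls and 492 and 739.9 TPM with TRULI (log2 difference 1.01), and Tpm2 78.4 and 65.5 against 106 and 153 TPM (0.82). The tropomyosins, which parted on the gel, thus both read higher here. Vcl had 12.6 and 17.7 TPM in controls and 21.4 and 27.8 TPM with TRULI (0.67, 95% interval 0.05 to 1.29), and Flna 49.7 and 65.0 against 66.9 and 68.8 TPM (0.25, 95% interval -0.18 to 0.68). Actn1 and Srf overlapped between the groups, with Actn1 at 78.5 and 89.6 against 78.5 and 96.8 TPM (0.06, 95% interval -0.34 to 0.45). Srf read 15.0 and 17.2 TPM in controls and 15.5 and 16.4 TPM with TRULI (-0.01, 95% interval -0.49 to 0.46).

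None of 39 other MRTF-SRF targets, 9 immediate early genes and 21 regulators tested passed the threshold. At an unadjusted p under 0.05 in limma there were 11, 0 and 3, where 12% of all genes lay under it. Median log2 differences were 0.19, 0.27 and 0.20. Markers of cells in the eye cup moved beside these genes. Myh11 and Rgs5, the genes of the mural gate, summed to 181 and 226 TPM in controls and 321 and 557 TPM with TRULI, in which Rgs5 went from 170.2 and 215 to 303 and 542 TPM. The 8 further mural genes summed to 112 to 124 TPM in controls and 154 to 169 TPM with TRULI, none at 0. Macrophage markers summed to 1395 and 1414 against 652 and 842 TPM, T cell markers to 54.6 and 73.2 against 18.5 and 16.2 TPM, and skeletal muscle markers to 311 and 49.3 against 40.8 and 14.6 TPM. The 6 endothelial markers summed to 434 and 432 against 367 and 430 TPM, with 3 of them higher and 3 lower. Rod markers overlapped (1189 and 576 against 351 and 609 TPM), as did fibroblast markers. The 6 RPE gate markers summed to 19607 to 19813 TPM in controls and 23039 to 23832 TPM with TRULI, with 3 of them higher and 3 lower. The 4 RPE markers outside the gate read 7979 and 8383 against 8389 and 5969 TPM. The part of these cell types in the differences of the 10 genes was not tested.

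**Figure D4:**
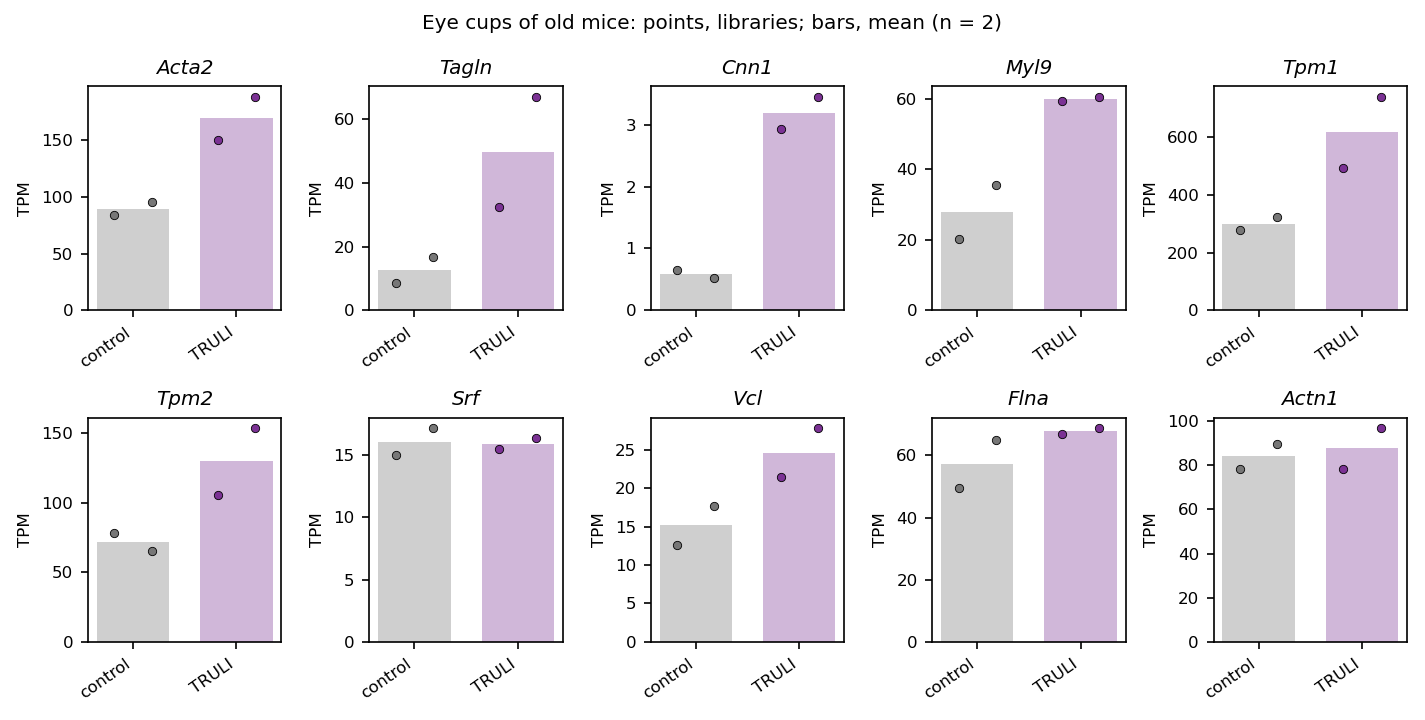
TPM (y axis, linear, from 0) of the 10 genes in eye cups of old mice without and with TRULI, with points for the 2 libraries of a group and bars for their mean. Tagln and Tpm1 are higher in both treated libraries with a wide spread between replicates. Cnn1 is higher in both with a narrower spread, and the points of Srf (15.0 to 17.2 TPM) and Actn1 overlap.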

How the data were processed

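The TPM tables were deposited by the authors, who used STAR and RSEM per the submitters' processing notes. Those notes name STAR versions 2.7.3a and 2.7.10b without saying which table each made, with GRCh38 for human and GRCm39 for mouse reads. The single-cell matrices hold UMI counts that the authors made with Cell Ranger 6.0.1 on mm10. The bulk mouse and cell line libraries are not described in the paper given for the series. TPM is a share of a library, so a gene's value also moves with the rest of the library.

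limma 3.58.1 in R 4.3.3 was run on log2(TPM + 1) (trend on, robust off) with Benjamini-Hochberg adjustment over all genes with at least 1 TPM in 3 of 9 ARPE-19 libraries (14606 genes, all 9 in a shared fit) or 2 of 4 mouse libraries (15132 genes). Fold changes are ratios of mean TPM and log2 differences, taken after 1 is added to each TPM, understate low genes. A cell had to show 200 or more genes, no hemoglobin UMI and no more than 10% of its UMIs from mitochondria. Gates used marker UMIs (fibroblast 1%, endothelial, macrophage and T cell 0.5%, each with at least 3 markers detected), and cells passing more than 1 gate, 702 and 431, were left out, with no doublet caller run. UMIs were summed per gate and scaled to CPM, with exact Poisson, binomial and conditional intervals (Python 3.11.15, numpy 2.4.6, scipy 1.17.1, pandas 2.3.3). A total of 89817876 and 82897938 UMIs were kept at 3 and 24 months. Sequences came from RefSeq and figures from matplotlib 3.10.9. The members and lists were chosen with earlier results of these data known. From each list the text names up to 4 called genes with the largest log2 difference each way, and the 5 genes most alike to Acta2. Scripts were tested on simulated data. Alternatives changed the pseudocount, filter, normalization, block, moderation, fold minimum, libraries, gates and thinning.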

Additional observations from a re-analysis of the deposited data

How the results depend on the processing

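Of the ARPE-19 values of the 10 genes, 122 of 140 alternatives for gel against plastic, 124 of 140 for YAP-HA against gel and 137 of 140 for YAP-HA against plastic kept direction and call. A minimum log2 change of 0.5 left 3719, 3871 and 2187 genes called in these comparisons and 4 of the 10 genes for YAP-HA against gel. Centring library medians moved the median of all genes for gel against plastic from -0.04 to 0.07 and the share of calls that were higher from 44.8% to 58.1%, and against plastic for YAP-HA from 41.3% to 56.2% (54.5% with quantile normalization). It turned FLNA for gel against plastic to 0.11 and VCL for YAP-HA against gel to -0.031, and the 8 lower genes of gel against plastic stayed called. Leaving out 1 library gave FLNA -0.046 to 0.029, VCL -0.10 to 0.15, and under TRULI Srf -0.10 to 0.079, Actn1 -0.094 to 0.21, Flna 0.060 to 0.44, Vcl 0.44 to 0.90 and Tagln 1.37 to 2.39, and quantile normalization gave Actn1 -0.00058. Under TRULI all-gene calls fell from 8 to 0 with a pseudocount of 0.1, without the filter and with the replicate block, and were 13 without TRULI replicate 2, 4 without TRULI replicate 1, 2 without control replicate 1 and 1 without control replicate 2 (the lone sample then being assumed to vary like the others), with none of the 10 genes called. Same-numbered libraries did not deviate together (r -0.12 to 0.09), which gave no sign of pairing. With 2 or 3 libraries per group this check cannot exclude it. The replicate block called 8, 6, 9 and 0 of the 10 genes and 6905, 6645, 4530 and 0 of all genes, losing TPM2 (adjusted p = 0.0571 in limma) and SRF (adjusted p = 0.0728 in limma). In the mural gate 1 gene passed the fold when cells of more than 1 gate were kept (Cnn1, 1.22). In the RPE gate 0 passed after thinning, 0 with the gate at 2% and 1 with a minimum of 50 UMIs. The cause was not tested. Bulk depth is unknown, and 1 single-cell library per age leaves animal variation unmeasured.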
